A study of Homo sapiens with 16 samples.

Results

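The regions described here are stretches of the human genome with an RNA polymerase II (Pol II) peak after 1 h of merbarone, none in control cells and none after 30 min, that stand 5 kb or less from a control peak. Peaks of the 3 Pol II lists that shared at least 1 bp were merged into 104562 regions, and 24925 of them held a peak at 1 h only. Of these, 18497 (74.2%) lay 5 kb or less from a control peak, and they are called 1 h only sites below. Each consisted of 1 peak of the 1 h list. They made up 22.6% of the 81816 peaks at 1 h and covered 4.93 Mb. The sites were thus chosen by the presence and absence of called peaks in the 3 lists, so their number is a description and not a result. For the same contrast over all peaks, 44.1% of 1 h peaks overlapped no control peak, and 23.8% of all merged regions held a peak at 1 h only.

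All libraries came from hTERT RPE-1, a wild-type line from human retinal pigment epithelium that carries telomerase, after 48 h in medium with 0.1% serum. The 1 h list stands for 2 Pol II libraries from cells given 200 uM merbarone for 1 h, and the 30 min list for 3 libraries given the same dose for 30 min. The control list stands for 6 libraries together, 3 given DMSO vehicle for 30 min and 3 left untreated, so the 1 h time has no vehicle of its own. A list of TOP2A peaks stands for 2 untreated libraries. Cell identity was not checked, since no gene annotation of hg19, the build of these lists, was used here.

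Pol II transcribes protein-coding genes. It gathers at promoters, where it often pauses just after the start, and is spread more thinly along the gene body and past its end. A moving polymerase overwinds the DNA ahead of it and underwinds the DNA behind. Topoisomerase II, of which TOP2A is the alpha form, removes such supercoils by passing one duplex through another, and merbarone blocks its catalytic cycle. The antibody was directed at the N-terminal part of RPB1, the largest Pol II subunit, so it binds paused and elongating polymerase alike. A peak is an interval that the authors' peak caller marked as bound.

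The libraries of a condition share 1 list, so no value here has a spread between replicates and no test between conditions was made. Intervals in parentheses are 95% intervals for counting alone, and neighbouring regions are not independent. Read depth was unknown, and the peaks came without heights or scores. A list from more reads cannot be told apart from one of more bound sites. The lists also had unlike limits: the narrowest width in control was 136 bp, that at 30 min 150 bp and that at 1 h 159 bp, while the closest neighbours stood 1, 1 and 38 bp apart.

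Between control peaks and beyond them, 1 h only sites were split almost evenly. A control peak stood within 5 kb on both sides of 8282 sites (44.8%, 44.1 to 45.5), which are called gap sites here. The other 10215 (55.2%) had a control peak within 5 kb on one side only and are called one-sided. The division rests on the distance chosen. With a gap defined as control peaks up to 5 kb apart, 36.8% of sites lay in one, and with up to 20 kb apart, 71.6% did. Of the one-sided sites, 48.6% still stood between control peaks up to 20 kb apart, and 25.2% faced more than 50 kb without a control peak or the end of the peaks on a chromosome.

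Gaps held more sites for their length. Bases under no control peak and within 5 kb of one came to 50.7 Mb with control on both sides and 180 Mb with control on one side. There were 163 gap sites (160 to 167) and 56.9 one-sided sites (55.8 to 58.0) per Mb of these. With peaks of the 3 lists joined across 1 kb the values were 11.3 and 12.8 per Mb. No site can then lie within 1 kb of a control peak, but the sequence there was still counted as free. These values therefore cannot be read as a change of order.

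Other regions found in some lists only showed the same order. Of 11205 regions with a peak at 30 min only and beside control (82.5% of all 30 min only regions were that close), 52.0% (51.1 to 53.0) were gap sites, at 115 per Mb in gaps and 29.9 per Mb on one side, a ratio of 3.85 where that of the 1 h only sites was 2.88. Of 8051 regions absent from control but found at 30 min and 1 h (87.5% of such regions were beside control), 57.2% (56.1 to 58.3) were gap sites. The mirror image, control only regions beside 1 h peaks (82.8% of control only regions), numbered 10643, with 57.4% (56.5 to 58.4) between 1 h peaks. The 1 h only sites thus had the lowest share in gaps of these sets, and they kept that place when the lists were given like limits.

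Like limits were set by joining peaks up to 37 bp apart and leaving out those under 159 bp in each Pol II list, which left the 1 h list as it was. The share in gaps was then 38.4% for 19385 1 h only sites, 44.6% for 7910 regions at 30 min only, 50.5% for 8061 at both times and 57.7% for 5333 control only regions. The order of the 4 sets for this share was the same with like limits as without.

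From 250 bp on, the sites thinned out with distance from control peaks. Counted by midpoint, there were 186 1 h only regions per Mb of free sequence (180 to 193) at 250 to 500 bp from a control peak, 94.6 (91.8 to 97.5) at 1 to 2 kb and 29.3 (27.5 to 31.1) at 4 to 5 kb. Within 250 bp there were 65.5 (62.5 to 68.5), where the midpoint of a site has less room beside the control peak. The decline carried on past the limit of 5 kb with no step, to 18.7 per Mb at 5 to 10 kb and 3.82 at 20 to 50 kb. The 3 sites at exactly 5000 bp were 367, 372 and 159 bp wide, and the 3 regions just outside, at 5001 bp, were 159, 200 and 276 bp wide. Between 4500 and 5000 bp lay 442 sites, and between 5000 and 5500 bp lay 402 further 1 h only regions.

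At equal distance, sequence with control peaks on both sides still held more sites than sequence with control on one side. At 500 to 1000 bp from the nearest control peak there were 260 per Mb (250 to 271) in gaps and 100 (95.9 to 105) on one side, and at 2 to 3 kb 134 (123 to 145) and 44.9 (42.7 to 47.1). At each of 6 distances from 250 bp to 5 kb, the density in gaps was 1.84 to 3.01 times that on one side.

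**Figure D1:**
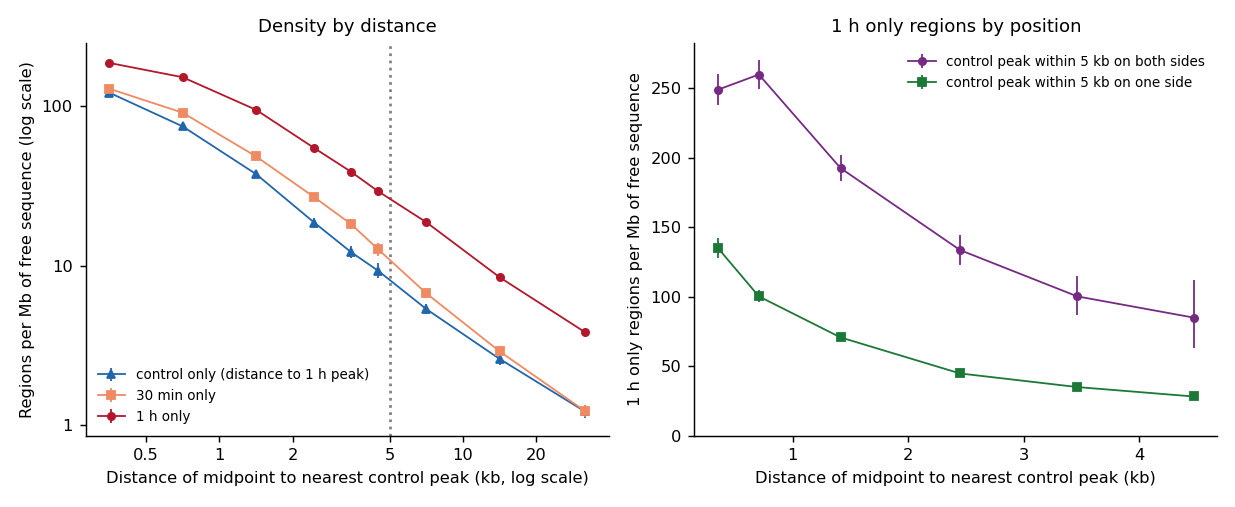
Left: regions per Mb of free sequence against the distance of their midpoint to the nearest control peak (log scales), for control only regions (distance to the nearest 1 h peak), 30 min only and 1 h only regions; the dotted line marks 5 kb. Both panels start at 250 bp. Right: 1 h only regions with control peaks within 5 kb on both sides or on one side. Bars are 95% counting intervals; density declines from 186 per Mb at 250 to 500 bp to 3.82 at 20 to 50 kb for 1 h only regions.

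The decline was shallower for 1 h only than for 30 min only regions. For every 30 min only region there were 1.45 1 h only regions at 250 to 500 bp from control, 1.96 at 1 to 2 kb, 2.31 at 4 to 5 kb and 2.79 at 5 to 10 kb. With like limits these ratios were 2.09, 2.68, 3.12 and 3.74. The ratio thus grew with distance under both settings, so 1 h only regions lay on the whole further from control Pol II than 30 min only regions. Both sets were chosen against the same control list.

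Filling of gaps was partial. Among gaps of 1 to 2 kb between neighbouring control peaks, 1655 of 6157 (26.9%, 25.8 to 28) held a 1 h only site, and among those of 2 to 5 kb, 2390 of 5758 (41.5%, 40.2 to 42.8). In gaps of 500 to 1000 bp it was 9.83%, and in those of 200 to 500 bp 1.25%, where a site at least 159 bp wide has little room. Regions at 30 min only were found in 19.7% of gaps of 1 to 2 kb and 29.7% of those of 2 to 5 kb.

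In gaps that held sites, the part under them was smaller the longer the gap. The median was 50.1% in gaps of 200 to 500 bp, 30.2% at 500 bp to 1 kb, 18.2% at 1 to 2 kb, 10.4% at 2 to 5 kb and 5.32% at 5 to 10 kb. In gaps of 200 bp to 10 kb, 4614 of the 6622 with a site held 1, 2008 held at least 2, and the most was 13. Over all gaps up to 10 kb the sites covered 4.07% of the length.

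Full bridging came from wide peaks, not from these sites. Of gaps of 200 to 500 bp, 28.9% lay wholly under 1 h peaks, against 12.0% under 30 min peaks, and of gaps of 500 to 1000 bp, 8.52% and 1.54%. Full cover depends on how close peaks were joined, and closest neighbours stood 38 bp apart at 1 h and 1 bp apart at 30 min. These shares are for the lists as deposited and were not run with like limits. A peak that spans a gap overlaps control and is no 1 h only site. At the other end, 20.7% of gaps of 200 bp to 10 kb held no base under a 1 h peak, and 26.5% held none under a 30 min peak.

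**Figure D2:**
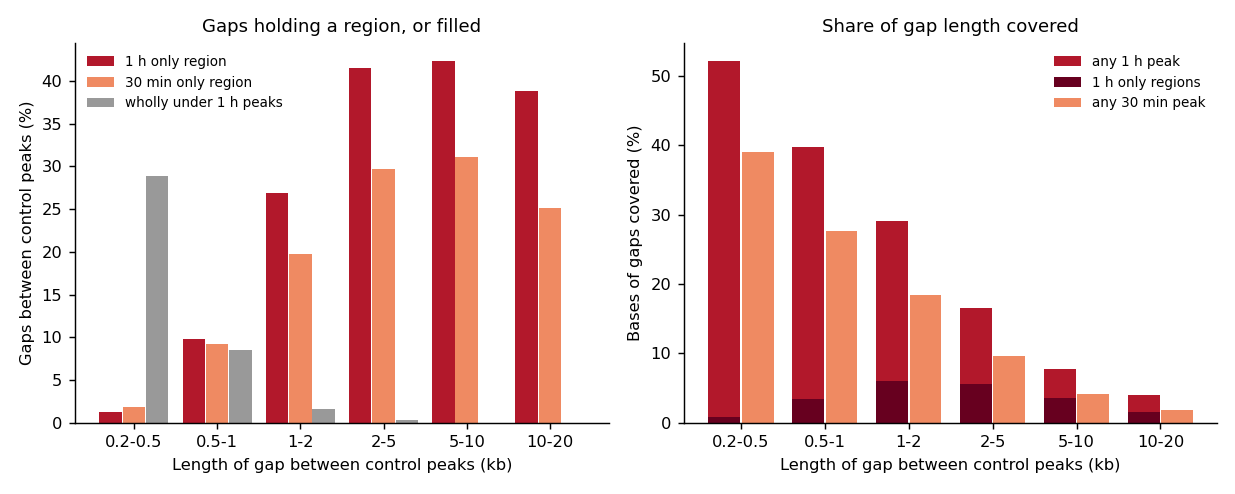
Left: percent of gaps between neighbouring control peaks, by gap length in kb, that held a 1 h only region, held a 30 min only region, or lay wholly under 1 h peaks. Right: percent of gap bases under any 1 h peak (dark part: 1 h only regions) and under any 30 min peak; in gaps of 2 to 5 kb, 41.5% held a 1 h only site.

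Sites covered at least 50% of the length in 274 of the 6622 gaps of 200 bp to 10 kb with a site. Of these 274 gaps, 93 were among the 181 of 200 to 500 bp with a site, and 12 were 5 to 10 kb long. The gap of up to 10 kb with most bases under sites lay at chr17:76899549-76908849, where 10 sites covered 62.8% of a control-free stretch of 9301 bp, and no base of it lay under a 30 min peak. Close by, at chr17:76869873-76879190, 9 sites covered 56.0% of a second stretch, again with no 30 min peak. Together with 1 h peaks that reached in from the rims, cover at 1 h was 68.3% in the first of these gaps and 65.7% in the second.

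The other 3 gaps with most bases under sites were alike. At chr10:104537212-104547061, 8 sites covered 50.8%, and 30 min peaks covered 6.10%. At chr9:95886226-95894923, 8 sites covered 57.2%, and 30 min peaks 2.24%. At chr19:13914247-13923376, 11 sites covered 51.8%, with no base under a 30 min peak. In all 5, which hold no control peak by definition, 30 min peaks covered 6.10% or less. Sites overlap no 30 min peak by the rule, so gaps ranked by bases under sites have little room for 30 min peaks.

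Past the control peaks, most runs of one-sided sites held 1 site, but most one-sided sites shared a run. Sites up to 5 kb apart past the same control peak were joined into 6573 runs, of which 4385 (66.7%, 65.6 to 67.8) held 1 site and 150 (2.28%) held 5 or more. Runs of 2 or more took in 5830 of the 10215 one-sided sites (57.1%, 56.1 to 58.0). Since sites lie within 5 kb of their control peak, a run cannot reach far past that distance. Under that limit, the longest run lay at chr4:1006477-1012062, past a control peak from 1006080 to 1006340. Its 5 sites covered 76.1% of 5586 bp, and no 30 min peak lay there.

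The other long runs were more broken. At chr2:9402647-9407870, 5 sites covered 29.1% of the run. At chr11:10858838-10864048, 5 sites covered 46.2%, and 1 h peaks of any kind covered 75.5%. At chr3:149316845-149322001, 7 sites covered 44.0%, and at chr1:39592833-39597988, 5 sites covered 46.1%. None of the 5 runs had more than 10.6% of its length under 30 min peaks. By the rule, the part of a run under sites holds none.

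**Figure D3:**
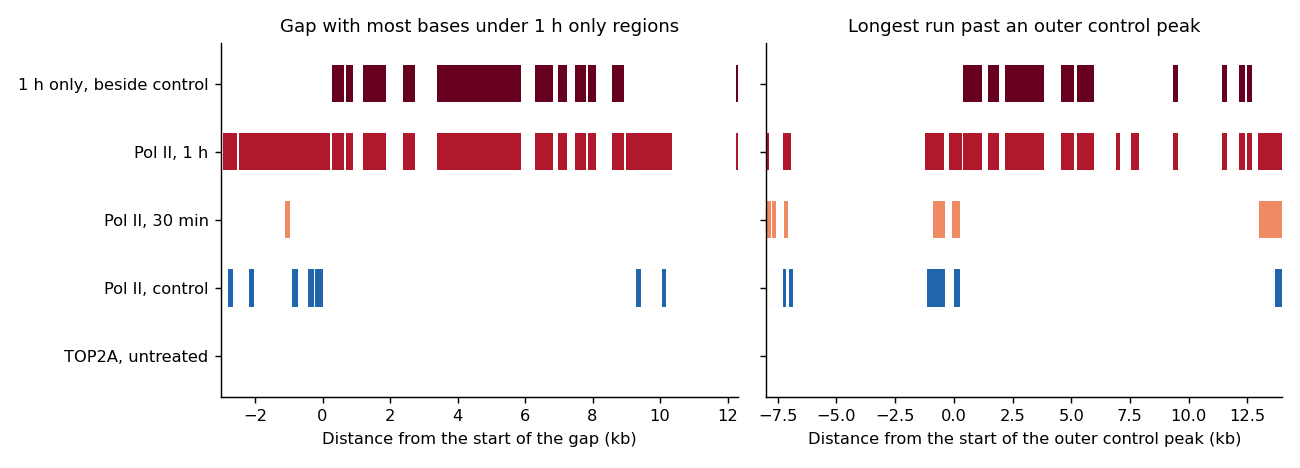
Peaks in the gap on chromosome 17 with most bases under 1 h only regions (left) and the longest run of sites within 5 kb past an outer control peak, on chromosome 4 (right), against distance in kb from the start of the gap or of the control peak. Each bar is 1 peak; rows are the 1 h only sites, Pol II at 1 h, at 30 min and in control, and TOP2A. The 10 sites in the gap and the 5 in the run lie where the 30 min and control rows are empty, as the rule for sites requires.

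Control domains, made by joining control peaks up to 5 kb apart, numbered 20013, and 7412 of them (37.0%, 36.4 to 37.7) had at least 1 site. Of these, 4926 had sites past 1 end, 1201 past both ends, and 1285 inside only. Ranked by number of sites, the first 1505 domains, 7.52% of all, held 50% of the sites. The share of free sequence in those domains was not set beside this. Single control peaks had sites beside them in 20.5% of cases, domains of 5 to 19 control peaks in 68.5% and those of 20 or more in 88.4%. Domains with more peaks were also longer, with a median of 0.474 kb for single peaks and 29.6 kb for 20 or more. Per Mb of free sequence inside domains there were 141 sites with 2 to 4 control peaks. With 5 to 19 and with 20 or more there were 175.

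Per domain, sites past the ends numbered 0.377 for single control peaks and 1.08 for domains of 20 or more. Rich domains thus had more sites past their ends than lone peaks, with up to 5 kb counted at either end of both.

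The domains with most sites were long and broken into many control peaks. The first, 387 kb at chr10:13675269-14062544, held 519 control peaks and 52 sites, 51 of them inside. Of its length, 36.5% was under control peaks, 48.9% under 30 min peaks and 60.9% under 1 h peaks. Next came a 242 kb domain at chr1:201521823-201764010 with 42 sites, covered over 27.9%, 41.1% and 51.7% in the same order.

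The next 3 were covered less at 30 min than in control and most at 1 h. At chr11:19733233-19893014, with 34 sites, cover was 22.9% in control, 18.0% at 30 min and 47.7% at 1 h. At chr16:55512846-55623599, with 33 sites, it was 49.4%, 40.9% and 82.6%, and at chr3:124680572-124775513, with 32 sites, it was 29.8%, 25.9% and 62.9%. None of the 5 domains held a TOP2A peak. Cover at 1 h includes the sites that ranked these domains, so these values are descriptions.

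The sites were narrow. Their median width was 220 bp, with quartiles of 178 and 303 bp, and 1733 (9.37%) stood at 159 bp, the narrowest width in the 1 h list. Peaks at 1 h that overlapped control had a median of 621 bp. A narrow peak is less likely to touch a control peak, so width is bound up with the choice of the sites and was not tested.

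Median width hardly varied within the set. Gap sites had a median of 221 bp and one-sided sites 219 bp, and 497 and 590 of them were at least 500 bp wide. The median was 217 bp within 100 bp of control, 224 bp at 500 to 1000 bp and 218 bp at 4 to 5 kb. By median, sites close to control peaks were therefore about as wide as those at the limit. The widest part differed more, with 4.77% of sites within 100 bp and 6.64% at 4 to 5 kb at least 500 bp wide. The mean was 257 and 271 bp. The 1 h only regions further than 5 kb from control had a median of 212 bp.

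Regions found at both merbarone times and beside control were wider, with a median of 371 bp, and those at 30 min only and in control only were narrower, with 178 and 158 bp. With like limits the medians were 225 bp for 1 h only sites, 198 bp at 30 min only, 409 bp at both times and 198 bp in control only. The order of the first 3 held, with 1 h only sites between 30 min only regions and those found at both times. Regions at both times are mergers of overlapping 30 min and 1 h peaks, while the others are single peaks. Their width is thus an unlike measure, and how much of it comes from merging was not tested.

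**Figure D4:**
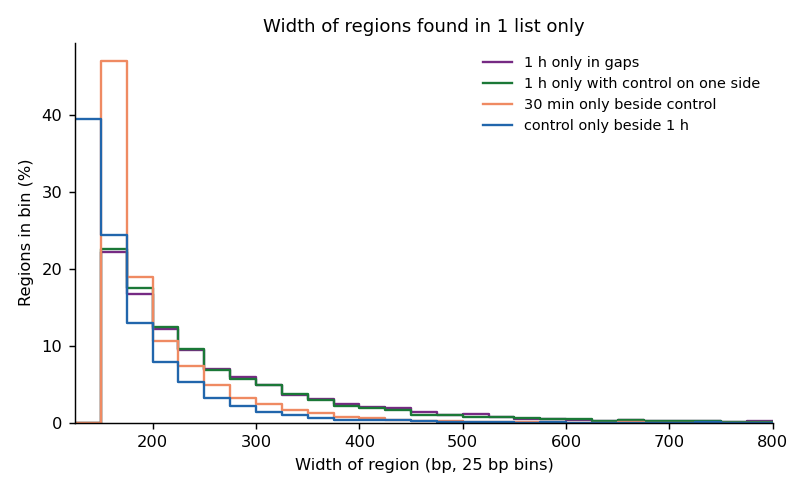
Percent of regions in bins of 25 bp of width (bp), for 1 h only regions in gaps (median 221 bp) and with control on one side (median 219 bp), 30 min only regions beside control (178 bp) and control only regions beside 1 h peaks (158 bp). The first 2 curves nearly coincide, and the start of each curve is set by the narrowest peak of its list.

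The widest sites stood next to other 1 h peaks. In gaps, the widest spanned 2501 bp at chr1:2213953-2216453, with control peaks 4634 and 4128 bp away, and a 30 min peak at 106 bp. The next spanned 2484 bp at chr17:76902953-76905436, in the most filled gap above. Others lay at chr6:158405372-158407408 and at chr10:104541665-104543588. The fifth, at chr1:2178522-2180333, spanned 1812 bp and had control peaks 558 and 588 bp away.

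Of one-sided sites, the widest spanned 2150 bp at chr17:30744006-30746155, 643 bp from a control peak and 25162 bp from the one on its other side. Those that followed spanned 2075 bp at chr15:68706164-68708238 and 1881 bp at chr11:114191321-114193201. The last 2, at 1859 bp each, lay at chr1:9381232-9383090 and at chr16:87490660-87492518. All 10 of these wide sites had another 1 h peak within 43 to 397 bp. In the whole set, 84 sites reached 1 kb.

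Most sites stood close to other 1 h peaks. The shares that follow are not given for other 1 h peaks, so this closeness was not shown to be particular to the sites. Another 1 h peak stood within 500 bp of 63.5% of sites (62.8 to 64.2) and within 1 kb of 79.7%, while a control peak stood within 500 bp of 35.3% and within 1 kb of 55.5%. For 74.7% of sites the nearest other 1 h peak was closer than the nearest control peak. Peaks at 1 h that were themselves absent from control stood within 1 kb of 56.2% of sites. Pieces of one broad signal called as separate peaks and separate bound sites cannot be told apart from intervals alone.

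A 30 min peak was often near as well, though none overlapped by the choice of the sites. It stood within 1 kb of 56.6% of sites and within 5 kb of 91.6%. It was closer than the nearest control peak for 51.9% (51.2 to 52.7) and further for 47.9%. The nearest Pol II before 1 h was thus a 30 min peak about as often as a control peak.

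The control peaks nearest to sites were mostly still present at 1 h. Of the 18497 sites, 8832 (47.7%, 47.0 to 48.5) had as nearest a control peak with a partner at 30 min and at 1 h. For 4406 (23.8%) it had a partner at 1 h and not at 30 min, and for 4165 (22.5%, 21.9 to 23.1) at neither time. Over all control peaks these shares were 66.2%, 11.5% and 14.6%, but the peaks nearest to sites were narrower: their median width was 186 bp, that of all control peaks 242 bp.

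In both classes of width under 400 bp, control peaks nearest to a site, each counted once, were absent at 1 h somewhat more often than control peaks at large. In both wider classes the order was the other way, with intervals that overlap. With each control peak counted once, a count chosen after seeing the data, 43.8% (42.6 to 45.0) of the 6409 under 200 bp that were nearest to a site had no overlap at 1 h, against 39.9% (39.4 to 40.4) of all of that width. At 200 to 400 bp it was 22.4% (21.0 to 23.9) of 3230, against 20.1% (19.7 to 20.6). In that class the share was 24.9% (23.0 to 26.9) nearest to gap sites and 19.99% (18.1 to 22.0) nearest to one-sided sites. Under 200 bp it was 44.1% (42.5 to 45.7) and 43.1% (41.4 to 44.9), with intervals that overlap. At 400 to 800 bp it was 2.98% (2.12 to 4.17) against 4.055% (3.73 to 4.405) of all. At 800 bp or more it was 0.0712% (0.0126 to 0.402) against 0.164% (0.109 to 0.245). Counted once for each site beside it, a control peak under 200 bp was absent for 41.1% (40.1 to 42.0) of sites. For one of 200 to 400 bp it was 21.1% (19.97 to 22.3). Both of these intervals overlap those of all control peaks of the same width.

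The sites made up a minor part of the sequence newly under Pol II peaks at 1 h. Bases under a 1 h peak and no control peak came to 22.1 Mb. Parts of overlapping peaks that reached past control gave 11.7 Mb (52.8%), the sites 4.93 Mb (22.3%), peaks in regions shared with 30 min or joined to control through it 3.87 Mb (17.5%) and 1 h only regions further away 1.65 Mb (7.46%). Peaks that overlapped control thus gave more new sequence than all 1 h only regions together.

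TOP2A in untreated cells was nearly absent from the sites. It was not used to choose them. The absence of a control peak was, however, and 1188 control peaks overlapped a peak of the TOP2A list, which held 1840. Of 18497 sites, 6 (0.0324%, 0.0149 to 0.0708) overlapped a TOP2A peak, 1 gap site and 5 one-sided sites. Of 45724 peaks at 1 h that overlapped control, 1141 (2.50%, 2.36 to 2.64) did. Per Mb of covered length these were 1.22 (0.447 to 2.65) and 23.8 (22.5 to 25.3) for the sites and the overlapping peaks. The overlapping peaks were chosen for a control peak, so this contrast is bound up with the choice of the sites. The density of TOP2A away from Pol II peaks was not set beside it, so depletion from the sites was not shown.

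A smaller share of the sites than of overlapping peaks held TOP2A in each of 5 classes of width, with intervals apart. This comparison, too, is bound up with the choice of the sites. Among peaks under 200 bp, 4 of 7322 sites (0.0546%, 0.0213 to 0.140) had TOP2A, against 11 of 4000 overlapping peaks (0.275%, 0.154 to 0.492). At 200 to 300 bp it was 0 of 6399 (up to 0.060%) against 16 of 6365 (0.251%, 0.155 to 0.408), and at 300 to 500 bp 2 of 3689 against 47 of 8855. None of the 1003 sites of 500 to 1000 bp overlapped TOP2A (up to 0.381%), against 1.28% (1.09 to 1.503) of overlapping peaks, and none of the 84 wider sites did (up to 4.37%), against 6.15% (5.77 to 6.54). The widest class has no upper limit, so widths are not matched in it. Per Mb of covered length the intervals overlapped in 2 classes. These were under 200 bp, at 0.858 to 8.06 TOP2A-bearing sites against 7.83 to 28.1 overlapping peaks, and 1 kb or more, at 0 to 33.9 against 25.5 to 29.0.

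Other regions found in some Pol II lists only had little TOP2A too. The share was 0.0803% (0.0423 to 0.153) for 30 min only regions, 0.0497% (0.0193 to 0.128) for those of both merbarone times, 0.0940% (0.0511 to 0.173) for control only regions and 0.0622% (0.0242 to 0.160) for 1 h only regions further from control. These intervals overlapped that of the sites, so scarcity of TOP2A was not shown to be particular to them. The TOP2A list was short, at 1840 peaks, of which 28.1% stood at its narrowest width of 73 bp. Weak TOP2A sites that were not called cannot be told apart from absent TOP2A.

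**Figure D5:**
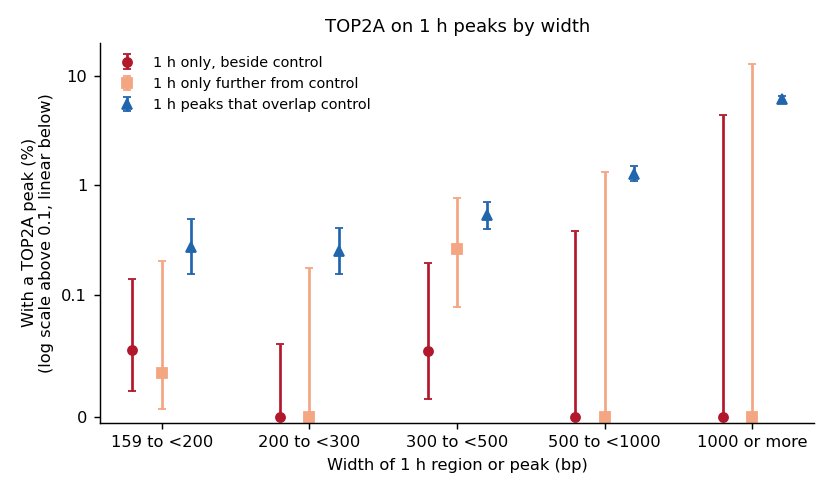
Percent of 1 h only regions beside control, of 1 h only regions further away and of 1 h peaks that overlap control that hold a TOP2A peak, by width of the 1 h region or peak (bp). Bars are 95% Wilson intervals, and the vertical axis is linear below 0.1 and logarithmic above. Under 200 bp, 0.0546% of the sites and 0.275% of the overlapping peaks held TOP2A.

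The 6 sites with TOP2A are named here in order of width. The widest, 489 bp at chr11:1492168-1492656, shared 59 bp with a TOP2A peak, and a 30 min peak stood 73 bp away. The site of 467 bp at chr17:19237171-19237637 held a whole TOP2A peak of 73 bp and lay 1890 bp from control. The gap site, 196 bp at chr16:70715127-70715322, shared 82 bp of an 85 bp TOP2A peak.

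The remaining 3 were narrow, and 2 of them lay close to control. At chr1:154378304-154378488 a control peak stood 293 bp away, and at chr1:229693824-229693982 one stood 172 bp away. At chr3:48544881-48545056 the site shared 39 bp with TOP2A, the least of the 6. With 50% of the TOP2A peak required inside the site, the share was 0.0270%.

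A TOP2A peak stood on or within 5 kb of 615 sites (3.33%, 3.08 to 3.59), against 2.18% (1.92 to 2.46) of 30 min only regions beside control, 2.77% (2.43 to 3.15) of those of both times and 5.03% (4.83 to 5.23) of 1 h peaks that overlap control. The nearest control peak held TOP2A for 227 sites (1.23%, 1.08 to 1.40), where 1.35% of all control peaks did. For 30 min only regions it was 0.705% (0.566 to 0.878).

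Control domains with TOP2A had sites less often than those without it in each of 5 classes of control cover. In domains with 500 to 2000 bp under control peaks, 135 of 558 with TOP2A (24.2%, 20.8 to 27.9) had a site, against 28.7% (27.8 to 29.7) of 9108 without. With 2 to 5 kb it was 54.2% (47.9 to 60.5) and 59.4% (57.5 to 61.4), with 5 to 10 kb 68.1% (59.2 to 75.9) and 76.5% (73.5 to 79.2), and with 10 kb or more 75% (67.9 to 81.0) and 82.8% (79.5 to 85.6).

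In the class under 500 bp it was 13.3% (6.26 to 26.2) of 45 domains with TOP2A and 29.7% (28.5 to 30.8) of 5945 without. The intervals overlapped in 4 of the 5 classes, all but this one. The number of sites per domain did not follow one order, with 1.54 in domains with TOP2A and 1.45 without it at 2 to 5 kb, and 3.18 and 3.86 at 10 kb or more. Within classes the domains were not matched further: under 500 bp, median control cover was 352 bp with TOP2A and 231 bp without. Median domain width in that class was 0.379 and 0.231 kb. At 10 kb or more, median control cover was 20541 bp with TOP2A and 14968 bp without. Median domain width was 4.05 kb with TOP2A and 5.89 kb without it at 2 to 5 kb. At 10 kb or more it was 36.1 and 28.3 kb.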

How the data were processed

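Per the labels' protocols, cells were crosslinked for 10 min in 1% formaldehyde. There were 16 libraries, and the 3 made with IgG were not analysed here. Per the submitters' processing notes, Bowtie 1.2.0, MACS2 and deepTools 2.4.1 were used, on hg19. The sources used here do not give the threshold for peaks, the background or the way replicates were pooled. The authors deposited, for each condition, peak starts and ends in bp and no score.

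Positions were read by the BED convention and are printed counted from 1. Distances are the bases between intervals. A control peak 5 kb or less away counted as beside. Free sequence is sequence under no control peak. Intervals are Wilson for shares and exact Poisson for densities. Named regions followed fixed ranks: the 5 widest gap and one-sided sites, the 5 gaps of up to 10 kb with most bases under sites, the 5 longest runs, the 5 domains with most sites, all sites with TOP2A, and the 3 nearest the limit on each side. The sites and ranks were chosen with earlier results of these data known. Like limits for the neighbouring sets, touching peaks and sequence at least 80 bp from control were added after seeing the data. Functions were checked on simulated data against bedtools 2.31.1. Python 3.11.15, scipy 1.17.1, pandas 2.3.3, numpy 2.4.6 and matplotlib 3.10.9 were used.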

Additional observations from a re-analysis of the deposited data

How the results depend on the processing

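The 1 h only sites numbered 18497 as reported. Their number stayed within 1.5 times of that with like limits, with 2 kb or 10 kb as the distance, and with touching peaks taken as overlapping. It was 4776 for sites of at least 300 bp, 10238 and 2876 with peaks joined across 200 bp and 1 kb, and 11743 with only control peaks of at least 300 bp as neighbours. In the same order of these 4 settings, the share in gaps was 46.0%, 35.9%, 19.9% and 19.5%, gap sites per Mb were 43.3, 72.5, 11.3 and 106, one-sided sites per Mb were 14.4, 36.5, 12.8 and 65.0, and the share of gap length filled was 1.79%, 2.15%, 0.434% and 2.77%. The median width was 389, 224 and 223.5 bp in the first 3. With like limits the share in gaps was 38.4%, with 187 gap sites and 70.2 one-sided sites per Mb, a median width of 225 bp and 4.86% of gap length filled. With 2 kb as the distance, 33.0% lay in gaps, with 171 and 102 sites per Mb and 3.603% of gap length filled, and with 10 kb, 55.5%, with 135 and 32.7 per Mb. With gaps defined by control peaks up to 5 kb apart, 36.8% lay in gaps, at 168 and 61.6 per Mb, and up to 20 kb apart, 71.6%. Leaving out sequence within 80 bp of control gave 194 gap sites per Mb. Touching peaks taken as overlapping left 4.06% of gap length filled. The mean width was 266 bp. TOP2A stood within 1 kb of 0.589% of sites and within 5 kb of 3.33%. Gap sites were denser than one-sided sites under every setting run but the joining across 1 kb. In that setting, sequence within 1 kb of control was counted as free although no site can lie there. The depth of the libraries was unknown. No paired analysis was possible because the libraries of a condition share 1 list, and for the same reason no replicate could be left out.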

Other observations

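The 1 h only sites lay on all 23 chromosomes with Pol II peaks. Per Mb of free sequence within 5 kb of control peaks, chromosome X had the fewest, at 40.3, and chromosome 16 the most, at 107, followed by chromosome 21 at 97.2 and chromosome 5 at 95.1. Per 100 control peaks there were 28.9 sites on chromosome 21, 16.5 on chromosome X and 16.1 on chromosome 10. The share in gaps ran from 35.0% on chromosome 22 to 51.1% on chromosome 14, while the median width stayed between 210 and 233.5 bp.

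Some one-sided runs carried on beyond 5 kb over further 1 h peaks absent from control, in steps of up to 5 kb and ending before the next control peak. These further peaks can be sites beside that next control peak, so reach can cross the space between control peaks. In the run at chr4:1006477-1012062, reach was 12428 bp over 6 further peaks, and the last of these were such sites. Reach is therefore not a measure of distance away from all control peaks. Of 6573 runs, 1701 (25.9%) reached more than 5 kb from their control peak, 478 (7.27%) more than 10 kb and 77 (1.17%) more than 20 kb. The furthest reached 57194 bp on chromosome 3, with 5 sites from 14446075 to 14449217 and 36 further peaks. The next reached 45361 bp on chromosome 13, from 110963243 on, and 45018 bp on chromosome 17, from 16951015 on.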
